A study of Mus musculus with 4 samples.

Results

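Amino acid transporters of the plasma membrane were followed in mouse colon epithelial cells kept with or without conditioned medium of Lactobacillus GG (LGG), a lactic acid bacterium given as a probiotic. The members were taken by gene symbol as the genes of 7 solute carrier (SLC) families, SLC1, SLC3, SLC6, SLC7, SLC36, SLC38 and SLC43, a rule that reads the symbol alone. The table held 43 such genes, of 12394 genes named in all, with 67 of its 22690 probe sets. A probe set is the group of probes that reports 1 transcript on this kind of array. They fell into 12 probe sets for 6 SLC1 genes, 2 for 2 SLC3 genes, 20 for 15 SLC6 genes, 19 for 13 SLC7 genes, 13 for 6 SLC38 genes and 1 for Slc43a3. For SLC36, 0 probe sets met the rule.

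YAMC cells are a conditionally immortalised line derived from the colon epithelium of young mice. Of 4 mouse 430A arrays, 2 carried total RNA of untreated cells and 2 carried total RNA of cells given LGG conditioned medium for 16 h. By their titles the arrays fall on 2 dates, here date 1 and date 2, with both groups present once on each, and what a date marks is not given. Separate cultures are stated nowhere for the arrays of a group, so the spread between these arrays may be technical. With date in the fit, a gene's own spread is how far its treated to untreated ratio differed between the dates. It enters the p-values with 1 degree of freedom. A variance shared across probe sets enters with 12.5 and so carries most of the weight. Cells given fresh or acidified medium were not analysed here, and the treatment is bacterium-conditioned medium as a whole. Trimmed means of the arrays lay between 500.1 and 513.5, and precision is limited by having 2 arrays a group.

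Solute carriers move amino acids across membranes by coupling them to sodium, to protons or to another amino acid that leaves in exchange. Several SLC7 carriers reach the cell surface only as light chains joined to an SLC3 heavy chain, Slc3a2 (CD98 heavy chain) or Slc3a1 (rBAT). When amino acids run short or proteins misfold, the transcription factor ATF4 is made in larger amounts and raises the transcription of many transporter genes through C/EBP-ATF response elements, also called CARE. In the gut, apical carriers take up amino acids from the lumen and basolateral exchangers pass them to the blood.

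The label colon epithelium was set against its markers. Of 14 epithelial marker genes on the array, the keratins Krt8, Krt18 and Krt19 reached a mean intensity of 101, the minimum used for testing. The adhesion gene Epcam measured 6 to 9, the brush border gene Vil1 1.7 to 10.5 and the intestinal factor Cdx1 1.8 to 5.8 over the 4 arrays, so these defining markers were near 0. Of 8 fibroblast markers on the array, 7 had values on all arrays and 4 reached the minimum. Among these the collagen gene Col1a1 measured 6568.6 to 10156.3 and Dcn, a matrix proteoglycan, 4084.9 to 8376.2, while Thy1 (51.4 to 93.7), Lum (59.8 to 88.6) and Pdgfrb (48.2 to 80.1) were under it. Over the 7 the summed intensity was 20204.1 and 17551.6 in untreated cells and 14841.2 and 13315.9 in treated cells, and of the 4 tested Dcn fell (log2 change -0.91 ± 0.13 SE, limma, adjusted p = 0.0014). Col1a1 (-0.04, adjusted p = 0.902), Col1a2 (-0.59, 0.129) and Pdgfra (-0.44, 0.29) did not pass. The summed intensity of 5 immune markers was 219.4 to 357.8 untreated and 452.1 to 525.9 treated. Cd68, the only 1 tested, was higher (log2 change 1.06, limma, adjusted p = 0.0314). The groups of Cd3e, Itgam, Adgre1 and the pan-leukocyte gene Ptprc (15.4 to 37.2) overlapped. The summed intensity of 4 endothelial markers was 309 to 398.3 untreated and 452.2 to 487 treated. This rise was that of Kdr, the only 1 tested (log2 change 1.29, limma, adjusted p = 0.00924). Tek was lower, at 149.4 and 96.1 untreated against 36.8 and 51.4 treated. Pecam1 was lower too (48 and 34.1 against 12.1 and 21.3), and the groups of Cdh5 overlapped. The sum of 6 neural markers was 239.1 to 308.8 untreated and 325.4 to 364.6 treated, with Rbfox3 at 2.1 to 8.6. Within it Tubb3, which was not tested, measured 62.5 and 44.9 untreated against 108.4 and 143.4 treated. The groups of the other neural markers overlapped, and Gfap, the only 1 tested, did not pass (log2 change 0.12, limma, adjusted p = 0.871). The 13 epithelial markers with values on all arrays summed to 2540.1 and 3400 untreated and to 3496.6 and 2992.9 treated. The tested keratins moved in opposite directions within this sum and did not pass by limma. Their log2 changes were 0.66 for Krt18 (adjusted p = 0.138), 0.23 for Krt8 (0.645) and -0.72 for Krt19 (0.0693). In the fit with no date block the call of Dcn held (adjusted p = 0.0464) and those of Cd68 (0.109) and Kdr (0.0622) were lost. The part of these shifts in the transporter values was not tested. In RNA from whole cultures, fewer cells of a type and less RNA per cell cannot be told apart.

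Most of the transporter genes were dim. Of the 67 probe sets, 51 were measured on every array and 16 at date 2 only, because both arrays of date 1 lacked them. Of the 51, 19 probe sets for 16 genes had a mean intensity of at least 101 and were tested, and 32 did not. A gene with several tested probe sets was represented by its brightest. The 16 genes were Slc1a4, Slc1a5 and Slc1a6 of SLC1, Slc3a2 of SLC3, Slc6a6, Slc6a8 and Slc6a9 of SLC6, Slc7a1, Slc7a4, Slc7a5, Slc7a10 and Slc7a11 of SLC7, Slc38a1, Slc38a2 and Slc38a10 of SLC38, and Slc43a3.

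**Figure D1:**
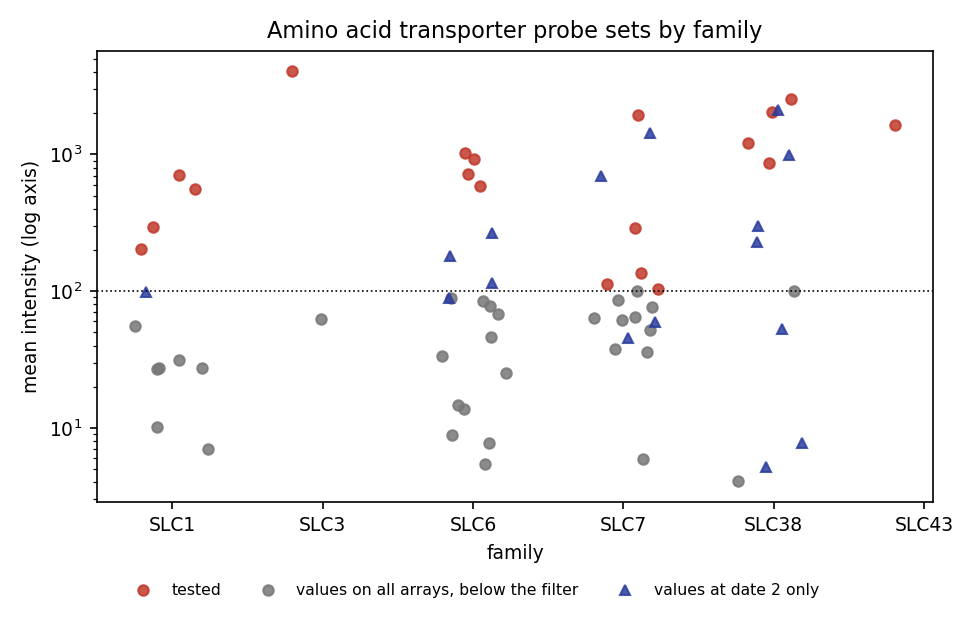
Mean intensity (log axis) of each of the 67 probe sets, by SLC family, over the arrays with a value. Red points were tested, grey points had values on all arrays but a mean under the dotted line at 101, and blue triangles had values at date 2 only, so 32 of 51 probe sets with values on all arrays lie under the line.

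LGG conditioned medium raised 1 transporter gene, Slc3a2, and lowered 0. Over all 6952 genes tested, 3.01% were called higher and 3.5% lower (limma fitted with group and date, p adjusted by Benjamini-Hochberg, threshold 0.05), 6.5% in either direction, so 1 of 16 is a share near that of genes in general. At an unadjusted p under 0.05, 4 of the 16 genes were higher and 0 lower, against 10.5% and 9.81% of all genes. In either direction that count of 4 became 1 with no date block and 2 without the intensity trend in the variance. The count over all genes fell too, from 1414 to 1064 with no date block and to 1304 without the trend. The median log2 change of the 16 genes was 0.30, with 0.18 at date 1 and 0.38 at date 2, beside 0.0315, -0.0198 and 0.0788 for all genes tested. It was 0.0713 without untreated replicate 2, and 0.0658 over the 40 genes tested with no minimum. Both treated arrays lay above both untreated arrays for 6 of the 16 genes and below them for 1, against 26.2% and 22.3% of all genes. The ratio of treated to untreated was above 1 at both dates for 7 genes, against 35.1% of all genes, and below 1 at both dates for 2, against 30.2%. The ratios of the other 7 genes had opposite directions at the dates. A change of at least 2-fold the same way at both dates was seen for 0 of the 16 genes, against 1.7% of all genes. Genes passed the minimum on their mean over all arrays, which a gene high in 1 group can do through that group.

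**Figure D2:**
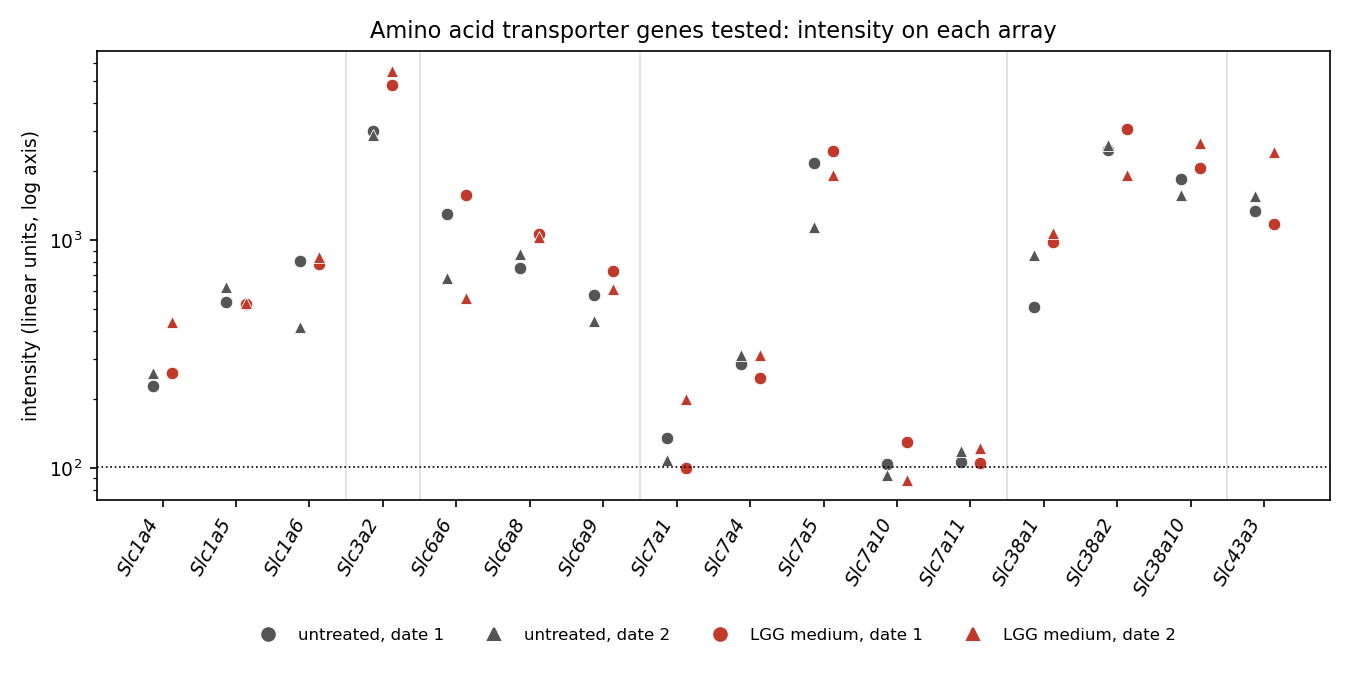
Intensity (log axis) of the 16 transporter genes tested on each array, grouped by SLC family, with grey for untreated and red for LGG medium, circles for date 1 and triangles for date 2, and the dotted line at 101. The 2 groups of Slc3a2 stand apart, while the grey points of Slc6a6, Slc7a5 and Slc1a6 are spread as widely as their groups differ.

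The heavy chain gene Slc3a2 makes the CD98 subunit that brings the SLC7 exchangers for large neutral amino acids, for cationic amino acids and for cystine to the plasma membrane. It measured 3011.2 at date 1 and 2898.9 at date 2 in untreated cells, and 4787.6 and 5511.1 in treated cells. Both treated arrays were higher than both untreated arrays, and within each group the arrays were close, 2955 ± 79.4 and 5149 ± 512 (SD, n = 2). Slc3a2 rose 1.73-fold, a log2 change of 0.79 ± 0.15 (SE, 95% interval 0.46 to 1.12, limma, adjusted p = 0.00852). The log2 ratio was 0.66 at the first date and 0.92 at the second. Its change was at the 96.6th percentile of all genes. The size of the change stayed between 0.69 and 0.89 when each array was left out in turn. The call was lost when the fit had no date block (adjusted p = 0.0713) and without untreated replicate 1 (0.529), untreated replicate 2 (0.526) or LGG replicate 2 (0.101), fits that have no block, while without LGG replicate 1 it held (0.032). It was also lost with no minimum intensity (0.121) and without the intensity trend in the variance (0.0856).

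The light chains that join Slc3a2 did not pass. Slc7a5 (LAT1), which exchanges glutamine for leucine and other large neutral amino acids, measured 2170.6 and 1140 untreated and 2466.6 and 1933.2 treated, at dates 1 and 2. The untreated arrays of Slc7a5 differed from each other more than the treated did from the untreated at date 1, and the groups overlapped. Its log2 change was 0.47 ± 0.20 (95% interval 0.04 to 0.89, adjusted p = 0.199), and it was 0.0087 when untreated replicate 2 was left out and 0.92 when replicate 1 was. Slc7a11 (xCT), which imports cystine in exchange for glutamate, measured 106.4 and 118.9 untreated and 104.9 and 122.5 treated, just above the minimum on each array. Its log2 change was 0.0095 ± 0.28 (95% interval -0.59 to 0.61, adjusted p = 0.991), and the upper end of this interval is below the fitted change of Slc3a2. Slc7a10 (Asc-1), a carrier of small neutral amino acids including D-serine, measured 103.9 and 93.1 untreated and 130.4 and 88.7 treated, with a log2 change of 0.11 ± 0.28 (adjusted p = 0.882). Whether the change of a light chain differed from that of Slc3a2 was not tested.

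Slc7a6 (y+LAT2), a light chain that exchanges cationic for neutral amino acids, had values at date 2 only. One of its probe sets measured 979.5 untreated and 1895.1 treated, a log2 ratio of 0.93, and the other measured 654.3 and 741.5, a log2 ratio of 0.17. With 1 array per group there is no replicate check on either, and the probe sets differ in size. Slc7a7 (y+LAT1) and Slc7a8 (LAT2), the basolateral light chains of the intestine and kidney, measured 33.9 to 73.8 and 29.7 to 55.9 and were not tested. The same holds for the apical pair Slc3a1 (40.5 to 78.1) and Slc7a9 (48.9 to 76.7), which take up cystine and cationic amino acids from the lumen. Of the 10 heavy and light chain genes on the array, 4 were tested, 1 rose and 3 did not pass, with a median log2 change of 0.29.

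**Figure D3:**
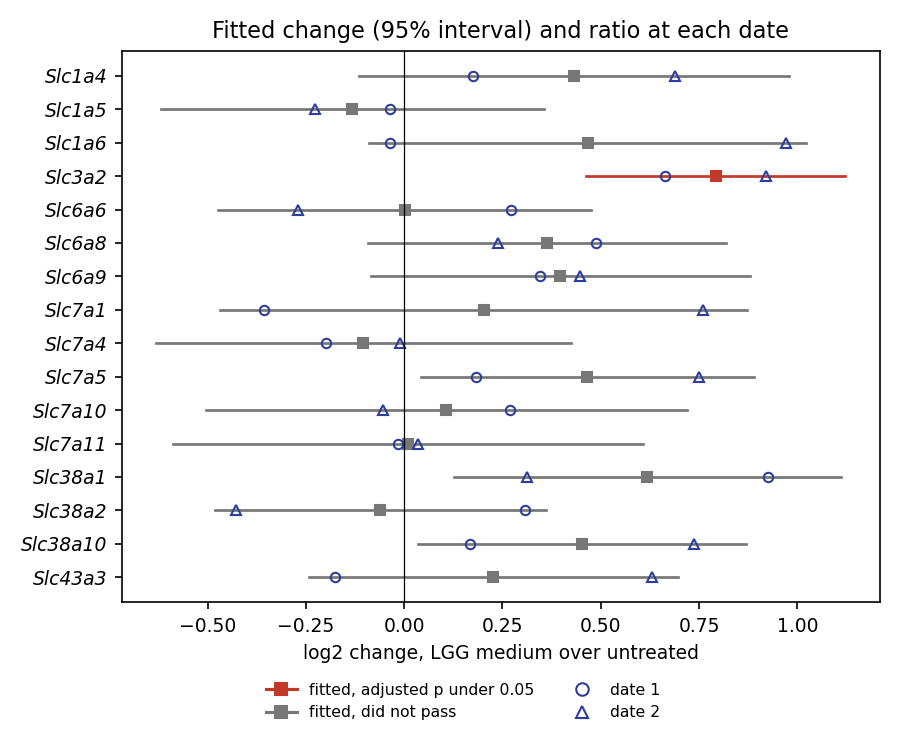
Fitted log2 change of each transporter gene (squares) with its 95% interval, red for the gene that passed and grey for those that did not, and the log2 ratio at date 1 (circles) and date 2 (triangles). The interval of Slc3a2 runs from 0.46 to 1.12, those of Slc38a1, Slc38a10 and Slc7a5 also lie above 0 without passing the adjusted threshold, and the others include 0.

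The cationic amino acid carriers of SLC7 work without a heavy chain. Slc7a1 (CAT1), the widely expressed importer of arginine and lysine, measured 135.5 and 108.1 untreated and 100.4 and 200.6 treated. The treated value was lower at date 1 and higher at date 2, and the log2 change was 0.20 ± 0.31 (adjusted p = 0.777). Slc7a4, a relative of the cationic carriers, measured 287.1 and 314.5 untreated and 247 and 312.3 treated (log2 change -0.10 ± 0.24, adjusted p = 0.866). Slc7a2 (CAT2), an arginine carrier inducible in macrophages, and Slc7a3 (CAT3) stayed under the minimum. Of the other SLC7 genes, not counted here with these carriers, Slc7a12 and the light chain gene Slc7a13 were under it too.

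In SLC38, the sodium-coupled carriers of glutamine and other neutral amino acids, 0 of 3 genes tested passed by limma, and 2 had an unadjusted p under 0.05. Slc38a1 (SNAT1) measured 506.6 and 863.5 untreated and 984.7 and 1077.7 treated. Both treated arrays were above both untreated arrays, but the untreated arrays were far apart, and the log2 ratio was 0.93 at date 1 and 0.31 at date 2. The log2 change of Slc38a1 was 0.62 ± 0.23 (95% interval 0.13 to 1.11, adjusted p = 0.138), next in size to that of Slc3a2 among the 16 genes, and it was 0.25 when untreated replicate 1 was left out and 0.99 when replicate 2 was. It passed (adjusted p = 0.044) when the probe sets of each gene on the array were averaged, a setting that leaves its own single probe set unchanged and alters the variance shared across genes.

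Slc38a2 (SNAT2), the amino acid carrier best known for induction by amino acid starvation, did not pass. It measured 2472.9 and 2610.1 untreated and 3066.5 and 1933.5 treated. The untreated arrays of Slc38a2 were close, and the treated arrays lay on either side of them. The log2 change was -0.06 ± 0.20 (95% interval -0.48 to 0.36, adjusted p = 0.905). Slc38a10 (SNAT10), a widely expressed carrier of glutamine, glutamate and aspartate, measured 1845.3 and 1582.4 untreated and 2075.2 and 2656.8 treated, with both treated arrays above the untreated. Its log2 change was 0.45 ± 0.19 (95% interval 0.04 to 0.87, adjusted p = 0.204), against 0.16 for its other tested probe set, whose values overlapped. Its 5 probe sets with values at date 2 only had log2 ratios of 0.11 to 0.58 there. These probe sets report 1 gene and are no replicates of the treatment.

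In SLC1 the 3 genes tested are neutral amino acid exchangers and a glutamate carrier, and 0 passed by limma, adjusted or at an unadjusted p under 0.05. Slc1a5 (ASCT2), which imports the glutamine that Slc7a5 can exchange, measured 537.3 and 624.2 untreated and 523 and 529.8 treated. Its treated arrays were both slightly below the untreated, the only such gene of the 16, with a log2 change of -0.13 ± 0.23 (95% interval -0.62 to 0.36, adjusted p = 0.803). Slc1a4 (ASCT1), an exchanger of serine, alanine and cysteine, measured 228.8 and 260.8 untreated and 261.6 and 435.8 treated by its brightest probe set (log2 change 0.43 ± 0.25, adjusted p = 0.373). Its other tested probe set measured 192.2 to 211.6 on all arrays, with a log2 change of 0.00044. The 2 probe sets of Slc1a4 therefore gave different sizes.

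Slc1a6 (EAAT4), a glutamate carrier known from cerebellar Purkinje cells, measured 807.2 and 416 untreated and 786.1 and 839.8 treated. The untreated array of date 2 was low and the other 3 arrays were alike. The log2 ratio of Slc1a6 was -0.04 at date 1 and 0.97 at date 2, and the fitted change was 0.47 ± 0.26 (adjusted p = 0.338). The glutamate carriers Slc1a1 (EAAC1), Slc1a2 (GLT-1) and Slc1a3 (GLAST) stayed under the minimum on all their probe sets. Slc1a1 is the glutamate carrier of the intestinal brush border.

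In SLC6, which holds sodium- and chloride-coupled carriers of amino acids, neurotransmitters and osmolytes, 0 of 3 genes tested passed by limma, adjusted or at an unadjusted p under 0.05. Slc6a9 (GlyT1), a glycine carrier, measured 571.7 and 441.8 untreated and 733.5 and 611.9 treated. Both treated arrays lay above both untreated arrays by a similar ratio at each date, and the log2 change was 0.40 ± 0.22 (95% interval -0.09 to 0.88, adjusted p = 0.351). Slc6a8, the creatine carrier, measured 752.8 and 870.6 untreated and 1066.8 and 1031.6 treated by its brightest probe set (log2 change 0.36 ± 0.21, adjusted p = 0.369). The other probe set of Slc6a8 had a log2 change of -0.22 (adjusted p = 0.662), so the probe sets disagreed in sign.

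Slc6a6 (TauT), the taurine carrier, differed between the dates. It measured 1301.7 at date 1 and 680 at date 2 in untreated cells, and 1576.7 and 559.7 in treated cells. Both arrays of date 2 were below both arrays of date 1. The log2 difference of date 2 from date 1 was -1.18 (limma, same fit, adjusted p = 0.0315), and Slc6a6 was the only gene of the 16 called between the dates, against 0.388% of all genes. The comparison of dates was added after the values were seen. The log2 change of Slc6a6 with LGG conditioned medium was 0.00095 ± 0.22 (95% interval -0.47 to 0.48, adjusted p = 0.998), made of 0.27 at date 1 and -0.27 at date 2.

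**Figure D4:**
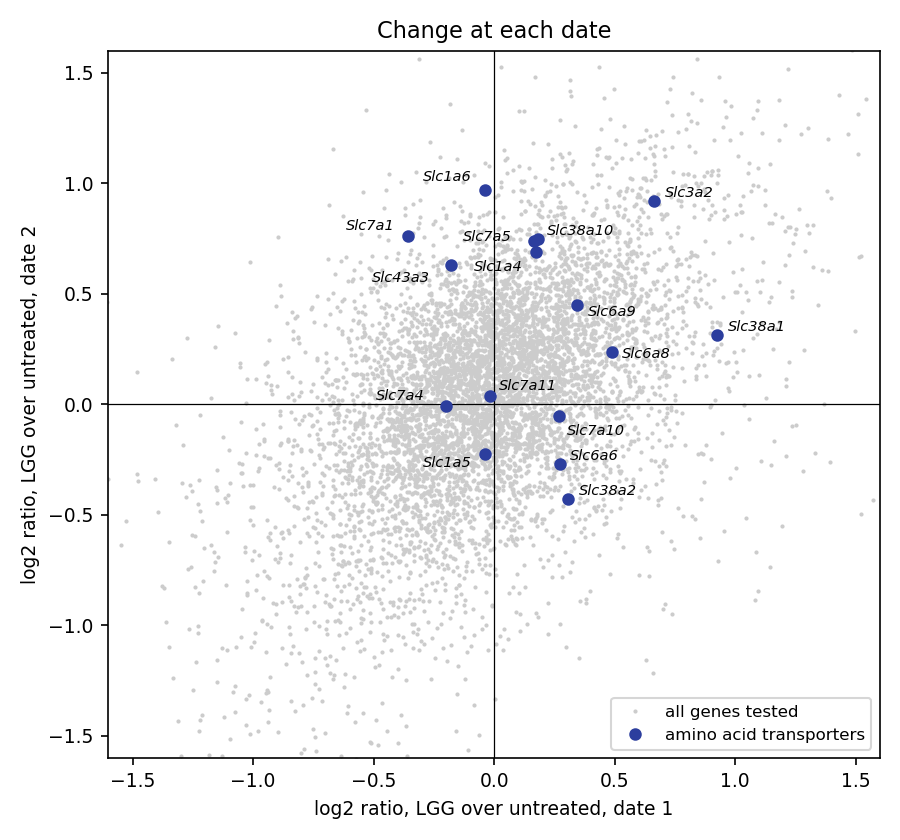
Log2 ratio of LGG medium to untreated at date 1 (horizontal) and date 2 (vertical) for the 16 transporter genes (blue) and all genes tested (grey), with 125 genes outside the plotted range of 1.6 either way. Slc3a2 lies to the upper right at 0.66 and 0.92, and 7 of the 16 genes lie in the quadrants of opposite sign.

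Slc43a3, placed by sequence with the SLC43 carriers of neutral amino acids and described as a carrier of purine bases, measured 1339.6 and 1568.6 untreated and 1181.9 and 2442.4 treated. The treated arrays lay on either side of the untreated, and the log2 change was 0.23 ± 0.22 (adjusted p = 0.618).

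The remaining 27 genes were not tested. Of these, 24 had values on all arrays with every probe set under the minimum. They were Slc1a1, Slc1a2 and Slc1a3; Slc3a1; Slc6a2, Slc6a3, Slc6a4, Slc6a5, Slc6a12, Slc6a13, Slc6a14, Slc6a15, Slc6a18, Slc6a20a and Slc6a20b; Slc7a2, Slc7a3, Slc7a7, Slc7a8, Slc7a9, Slc7a12 and Slc7a13; and Slc38a3 and Slc38a4. Their single values, with those of a dim second probe set of Slc7a4, ran from 1.3 to 125.8. The carriers of noradrenaline (Slc6a2), dopamine (Slc6a3), serotonin (Slc6a4), glycine at inhibitory synapses (Slc6a5) and betaine (Slc6a12) were among them, and of 11 neurotransmitter transporter genes on the array 2, Slc1a6 and Slc6a9, were tested. The apical carriers Slc6a14, Slc6a18, Slc6a20a and Slc6a20b were among them too. Slc38a3 (SNAT3), at a mean of 100.48 the brightest probe set below the minimum, measured 84.9 and 89.6 untreated and 120.6 and 106.8 treated. Slc6a18 measured 122.6 and 15.9 untreated and 125.8 and 93.8 treated, and its log2 ratio of 1.53 at date 2 rests on the single low untreated value.

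The genes with values at date 2 only were Slc7a6, Slc6a17 and Slc38a5. Slc6a17, a vesicular carrier of neurons, measured 188 untreated and 174.2 treated, and Slc38a5 (SNAT5) measured 54.3 and 51. Of the 16 probe sets with values at date 2 only, 9 had a mean of at least 101. Those higher in treated cells report Slc38a10, Slc7a6 and Slc6a9, and those lower report Slc6a6 and Slc6a17. Several of the 9 report the same gene and are not separate members. A ratio of at least 1.5-fold was reached by 1 of these 9, that of Slc7a6, against 11.2% of all such probe sets. A further probe set of Slc6a6 measured 47.6 and 130.1 there and was under the minimum.

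Several of the transporter genes are known targets of ATF4. Of 9 such genes on the array, 8 were tested, 1 rose (Slc3a2), 0 fell by limma and 7 did not pass (Slc1a4, Slc1a5, Slc6a9, Slc7a1, Slc7a5, Slc7a11 and Slc38a2), with a median log2 change of 0.30, or 0.18 at date 1 and 0.57 at date 2. The promoters of 3 of them are given to show where the response element that ATF4 binds is and is not found. The windows run from 250 bases before to 50 bases after the start of the gene and come from RefSeq, build GRCm38.p6, where 28 of the 43 genes had at least 1 window, 47 windows in all. Capitals mark CARE, searched as TGATGNAA on both strands. All 3 lie on the minus strand and are printed 5′ to 3′ in the direction of the gene. Slc3a2 is at chr19:8713848-8714147, Slc7a11 at chr3:50443564-50443863 and Slc1a4 at chr11:20332664-20332963.
Slc3a2: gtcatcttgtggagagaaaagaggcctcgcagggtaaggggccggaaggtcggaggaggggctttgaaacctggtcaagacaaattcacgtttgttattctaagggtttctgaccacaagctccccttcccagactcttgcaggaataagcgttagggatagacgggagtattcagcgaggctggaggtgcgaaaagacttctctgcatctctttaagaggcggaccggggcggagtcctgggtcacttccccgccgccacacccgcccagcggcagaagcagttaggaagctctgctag
Slc7a11: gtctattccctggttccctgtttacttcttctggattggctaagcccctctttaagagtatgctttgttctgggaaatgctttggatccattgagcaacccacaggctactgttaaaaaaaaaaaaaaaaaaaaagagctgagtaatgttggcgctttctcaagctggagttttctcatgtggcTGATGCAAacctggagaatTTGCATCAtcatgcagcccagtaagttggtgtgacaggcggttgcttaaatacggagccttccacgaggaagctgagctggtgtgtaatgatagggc
Slc1a4: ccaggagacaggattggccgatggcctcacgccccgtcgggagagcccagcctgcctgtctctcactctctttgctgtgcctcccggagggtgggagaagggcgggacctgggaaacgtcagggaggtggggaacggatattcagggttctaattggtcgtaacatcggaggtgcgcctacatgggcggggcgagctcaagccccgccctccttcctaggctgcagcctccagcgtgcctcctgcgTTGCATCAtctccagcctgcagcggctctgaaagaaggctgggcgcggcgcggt

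The window of Slc7a11, which did not pass, held 2 CARE matches, at bases 185 to 192 and, on the other strand, 204 to 211. That of Slc1a4 held 1, at bases 247 to 254 on the other strand. The letters were not found in the window of Slc3a2, the gene that rose, nor in those of the other 3 ATF4 targets with a window. Of the 28 transporter genes with a window, 3 held CARE, the other one being Slc7a7, against 4.51% of the 27025 genes in the table. Counted by window, 4 of the 47 held it, against 3.97% of all 32851 windows. An antioxidant response element core, TGACNNNGC, which NRF2 binds and which was added to the search afterwards, was found in 5 of the 28 genes, Slc6a9, Slc6a13, Slc7a1, Slc7a6 and Slc38a2, against 14% of genes, and in 7 of the 47 windows, against 12.4% of windows. No transporter gene held both this core and CARE. A match is a description of letters and not a bound site.

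Genes that act with the transporters differed in direction. Of 21 genes of the ATF4 and amino acid response tested by limma, 11 were higher and 3 lower at an unadjusted p under 0.05. The shares of all genes were 10.5% and 9.81%. The median log2 change of the 21 genes was 0.48, or 0.43 at date 1 and 0.34 at date 2. By adjusted p, 4 rose, 2 fell and 15 did not pass. Those that rose were the stress factors Ddit3 (2.26 ± 0.29, adjusted p = 0.000709), Atf3 (1.34 ± 0.36, adjusted p = 0.042) and Nupr1 (1.02 ± 0.24, adjusted p = 0.0231) and the pseudokinase gene Trib3 (0.99 ± 0.26, adjusted p = 0.0341). Those that fell were the transcription factor genes Atf5 (-0.97) and Cebpb (-0.98). Atf4 itself measured 2861.3 and 2712 untreated and 4254.6 and 3786.2 treated, and the asparagine synthetase gene Asns 2346.2 and 2593.5 against 3507.8 and 3646.9. Both genes had groups that did not overlap, log2 changes of 0.52 and 0.53, and adjusted p-values of 0.0652 and 0.0697 that did not pass. Atf4, Asns, Atf5 and Cebpb were named after their values were seen. Of the 4 that rose, only Ddit3 kept its call in the fit with no date term (adjusted p = 0.0288), and without LGG replicate 1 the log2 change of Atf3 was 0.42 and of Trib3 0.59. Over 13 alternatives the call was lost in 10 for Atf3, 7 for Trib3, 5 for Nupr1 and 3 for Ddit3.

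**Figure D5:**
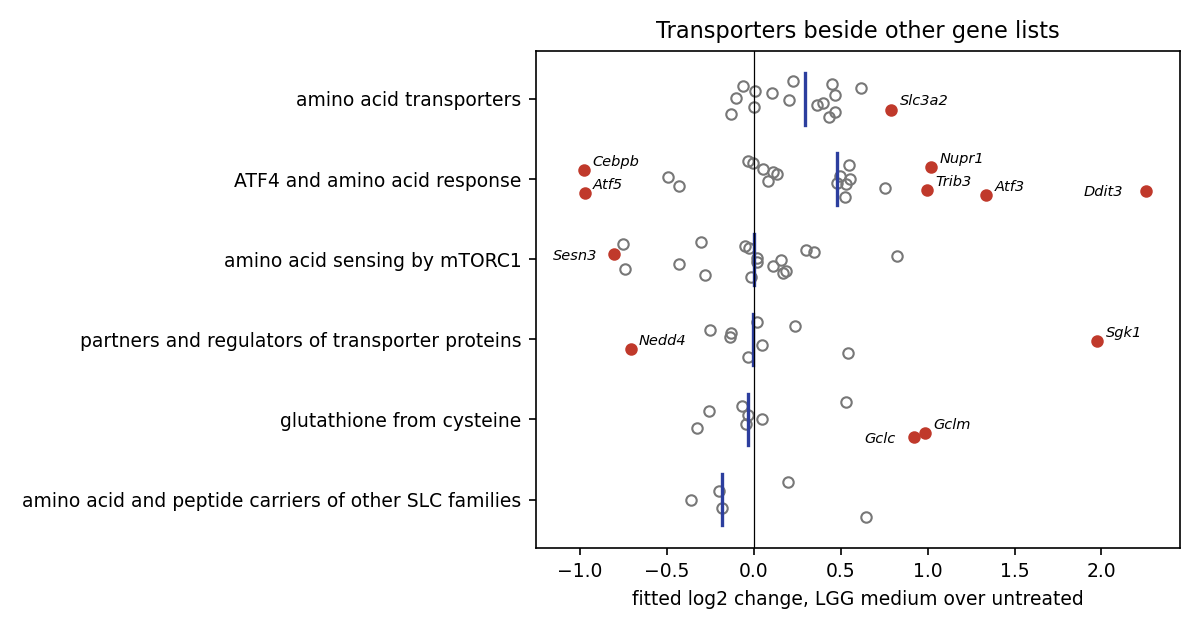
Fitted log2 change of each gene tested (points) in the transporter set and in 5 other lists, filled red where it passed and open where it did not, with a blue bar at each list's median. The transporter median is 0.30 and that of the ATF4 list 0.48, while the other 4 medians lie between -0.18 and 0.0030.

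Of 9 genes that lead from cysteine to glutathione, 2 rose and 0 fell by limma (3 higher and 0 lower at an unadjusted p under 0.05), with a median of -0.03. These were Gclm (0.99 ± 0.22, adjusted p = 0.016) and Gclc (0.92 ± 0.25, adjusted p = 0.0402), the subunits of glutamate-cysteine ligase, which uses the cysteine that Slc7a11 brings in as cystine. Cndp2, a dipeptidase gene, had a log2 change of 0.53 and the glutathione synthetase gene Gss -0.32, and neither passed. Leaving the date out of the fit ended both calls (limma, adjusted p = 0.104 for Gclm and 0.136 for Gclc). Over 13 alternatives the call of Gclm was lost in 5 and that of Gclc in 9.

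Of 10 partners and regulators of transporter proteins, 1 rose, 1 fell and 8 did not pass by limma, with a median of -0.0059. At an unadjusted p under 0.05, 2 were higher and 1 lower. Sgk1, a kinase that raises the surface level of several carriers, measured 92.3 and 129.1 untreated and 834.7 and 300.8 treated (1.97 ± 0.35, adjusted p = 0.0048). Nedd4, a ubiquitin ligase of the family that removes carriers from the membrane, measured 5339 and 4926.5 untreated and 2579.1 and 3804.6 treated (-0.71 ± 0.17, adjusted p = 0.0281). Both treated arrays of Nedd4 were below both untreated arrays, and the fall was larger at date 1, with log2 ratios of -1.04 and -0.37. Cd44 (0.55) and Ywhaq (-0.25) did not pass. Leaving the date out ended both calls (limma, adjusted p = 0.0771 for Sgk1 and 0.159 for Nedd4). Without LGG replicate 1 their log2 changes were 1.28 and -0.43. Over 13 alternatives the call was lost in 5 for Sgk1 and 7 for Nedd4. Without untreated replicate 1 or 2, limma called 0 genes on the whole array (485 and 533 at an unadjusted p under 0.05).

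Of 18 genes of amino acid sensing by the kinase complex mTORC1, 0 rose, 1 fell and 17 did not pass by limma (1 higher and 4 lower at an unadjusted p under 0.05), with a median of 0.0030. Sesn3, a sestrin gene, measured 654.9 and 823.7 untreated and 360.9 and 465.1 treated (-0.80 ± 0.23, adjusted p = 0.0497), a call that 11 of 13 alternatives lost. Flcn (-0.75) and Tsc2 (-0.74), whose products act on the Rag and Rheb GTPases, and Castor2 (0.82), a relative of an arginine sensor, had the same sign at both dates and did not pass (adjusted p = 0.088, 0.0731 and 0.0702). Of 5 amino acid and peptide carriers of other families, 0 rose and 0 fell by limma (1 higher and 0 lower at an unadjusted p under 0.05), with a median of -0.18. The largest log2 changes were those of the lysosomal peptide and histidine carrier Slc15a4 (0.65 ± 0.22, adjusted p = 0.109), the mitochondrial ornithine carrier Slc25a15 (-0.36), Slc25a38 (-0.20) and Slc66a1 (0.20). Of the lysosomal carriers of SLC36, SLC38 and SLC7 that were listed, 0 had a probe set that met the rule.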

How the data were processed

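Total RNA of YAMC cells was hybridised to mouse 430A arrays, per the labels. The table that the authors deposited gives linear intensity, a column per array, and the software, scaling and detection calls behind it are not given in the sources used here. Both arrays of date 1 lacked 6307 of the 22690 probe sets. Names came from the platform annotation supplied with the table (20393 probe sets with 1 symbol, 691 with several, 1606 with none), and all 43 transporter symbols matched RefSeq by Entrez identifier with 0 changed.

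Intensities were used as deposited and taken as log2(intensity + 25.2), a pseudocount of 5% of the trimmed mean (504.9), which understates the change of dim genes. After 64 control probe sets were set aside, the 10333 probe sets measured on every array whose mean reached 101 (20% of the trimmed mean), for 6952 genes, were fitted with limma 3.58.1 in R 4.3.3 (terms for group and date, moderated by eBayes along an intensity trend). P-values are two-sided and were adjusted by the Benjamini-Hochberg method over these probe sets, and the threshold was 0.05. The 2 dates in the titles pair the arrays, and the difference between dates correlated at 0.27 between the groups across probe sets. The fit has 1 residual and 12.5 prior degrees of freedom. The fit was tried on simulated arrays of the same number, with changes planted on the log scale that the fit itself uses. Recovery of their size was therefore set by the design and cannot show the effect of the pseudocount. The number of calls varied between runs and false calls often exceeded the threshold. Permuting 2 and 2 arrays without regard to date gives no two-sided p below 0.333, and fewer permutations exist within dates, so none was run. A difference between the dates in the response could not be tested. The 95% intervals use the moderated SE.

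The members and lists were chosen with earlier results of these data known. Every member was named. Array values were to be given for members that passed or changed 2-fold at both dates, and are given for all members tested. Of the other lists, up to 4 genes with the largest change of 1 sign at both dates were named. The intensities of different probe sets are not comparable as levels. Alternatives were no date block, other minimums, pseudocounts and scalings, no trend, averaged probe sets, and each array left out. Figures were drawn with matplotlib 3.10.9.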

Additional observations from a re-analysis of the deposited data

Results flagged for a closer look

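One probe set of Slc7a6 had values at date 2 only and lay outside the comparison of the groups. It was higher in treated than in untreated cells there, with a log2 ratio of 0.93 (1895.1 against 979.5), past the 1.5-fold used for such probe sets, while the other probe set of Slc7a6 had a log2 ratio of 0.17. There is 1 array per group at that date and no test.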

How the results depend on the processing

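The count of 1 transporter gene higher became 0 without date as a replicate block, with no minimum intensity and without the intensity trend, 2 with averaged probe sets, and 0 to 1 with each array left out. The count of genes lower and that of genes 2-fold changed at both dates were 0 in every alternative run. Slc3a2 had a log2 change of 0.79 with adjusted p = 0.0713 without the block, 0.79 with 0.121 with no minimum and 0.79 with 0.0856 without the trend, and ranged from 0.69 to 0.89 with each array left out (adjusted p from 0.032 to 0.529). Over its 13 alternatives the adjusted p ran from 0.000226 to 0.529, and the cause of the losses was not tested beyond the date block, the changed variance and the fewer arrays. The median change of the transporters was 0.0658 with no minimum, where 40 genes were tested, and 0.0713 to 0.316 with each array left out, the lowest without untreated replicate 2. Slc6a6 changed sign at a pseudocount of 1 (-0.0021) and under quantile normalization (-0.013). With each array left out, sign changes gave ranges of -0.73 to 0.73 for Slc6a6, -0.082 to 0.10 for Slc7a11, -0.12 to 0.33 for Slc7a10, -0.26 to 0.051 for Slc7a4, -0.39 to 0.27 for Slc38a2, -0.29 to 0.74 for Slc43a3 and -0.22 to 0.63 for Slc7a1, none of which passed. Of 514 other single-gene values under the alternatives, 419 kept direction and side of the threshold, 77 lost a call, 7 gained one and 11 changed sign. Only a gene called in the main fit can lose a call, and most of these genes were not called. The 77 losses are therefore not to be read as a share of 514. By gene they ran from 3 of 13 alternatives for Ddit3 to 11 of 13 for Sesn3. The fit with no replicate block ended 10 of those calls, among genes outside the transporters, and reversed none. Over all genes, limma with all arrays called 209 higher and 243 lower, against 24 and 37 without the block and 0 and 0 with no minimum (1525 at an unadjusted p under 0.05). The 24 genes under the minimum were tested only in the alternative with no minimum. There 3 of 40 transporter genes had an unadjusted limma p under 0.05, against 1525 of all 10782 genes tested. How far their signals lie above background is not known.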
